A study of Mus musculus with 9 samples.

Results

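Left ventricle of Sgcd knockout mice given the thromboxane-prostanoid (TP) receptor antagonist ifetroban was compared with left ventricle of knockout mice given plain drinking water. The comparison covers 5 of the 9 RNA-seq libraries of the study, chosen by title: 3 titled dSG-ife (KO ifetroban replicates 1 to 3) and 2 titled dSG-veh (KO vehicle replicates 1 and 2). The KO ifetroban group was delta-sarcoglycan knockout on a C57BL/6 background and received 25 mg/kg/day of ifetroban in the water from weaning. The KO vehicle group had the same genotype and background and received water without the drug. Every animal was given running wheels at intervals to bring out cardiomyopathy, was killed at 6 months, and had its heart perfused with PBS before RNA was taken from the left ventricle, so the exercise and the age are shared by drug and vehicle groups. The other 4 libraries, wild-type C57BL/6 ventricle with or without the drug, entered the fit as groups of their own and were used to estimate the spread between replicates. The labels name no knockout allele, and they do not say whether the libraries of a group came from separate animals, so the p-values measure the spread between these libraries, which may be technical.

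One library carries contradictory labels. KO ifetroban replicate 1 is ifetroban-treated by its title and its source name, whereas its treatment field reads vehicle. It was grouped by title, and results that rest on it are given with and without it.

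Delta-sarcoglycan is a membrane protein of the sarcoglycan complex, which together with dystrophin and dystroglycan ties the cytoskeleton of a muscle cell to the matrix around it. Its loss causes limb-girdle muscular dystrophy with cardiomyopathy, in which heart muscle cells are damaged, natriuretic peptide genes are switched on and scar tissue forms. The TP receptor, encoded by Tbxa2r, is activated by thromboxane A2 and by isoprostanes, couples to G proteins, raises calcium in the cell, and is known for platelet aggregation and vessel constriction. Ifetroban blocks that receptor, so the comparison asks what RNA differs in a dystrophic ventricle when the receptor has been blocked since weaning.

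Sgcd itself was measured first. It stood at 9.64 and 8.63 CPM (counts scaled to library size, with TMM factors) in the KO vehicle libraries and at 7.30, 12.9 and 13.3 CPM in KO ifetroban replicates 1 to 3, and the groups overlapped. In the wild-type libraries it was 20.9, 23.7 and 23.5 CPM in vehicle replicate 2 and ifetroban replicates 1 and 2, above every knockout library, but 8.36 CPM in the library labelled wild-type vehicle replicate 1, which lay within the knockout range. That library is used here for the spread alone. The knockout ventricle therefore kept a measurable amount of RNA assigned to Sgcd (chromosome 11, 46896253 to 47988969, minus strand, mm10); the labels do not name the part of the gene that was removed.

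The 5 knockout libraries held 21510224 to 30182926 counts each over 18895 to 19199 genes with a count. Heart muscle genes dominated them: the 15 cardiomyocyte markers summed to 57205 to 63753 CPM. Transcript length divided the libraries. Among 13051 protein-coding genes, the Spearman correlation of a gene's deviation from the 9-library mean with its transcript length was -0.402 and -0.455 in KO vehicle and -0.524 in KO ifetroban replicate 1, but 0.402 and 0.385 in KO ifetroban replicates 2 and 3. KO ifetroban replicate 1 thus resembled the vehicle libraries in this property, and its counts were also nearer to theirs: chi-square per degree of freedom was 10.31 and 13.41 against the vehicle libraries and 51.22 and 60.85 against ifetroban replicates 2 and 3, with 10.99 between the vehicle libraries. Drug and length slope cannot be told apart in replicates 2 and 3. For many gene groups the value in replicate 1 and the value in replicates 2 and 3 are therefore set side by side. Both are taken against the same 2 vehicle libraries, so they are not independent.

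**Figure D1:**
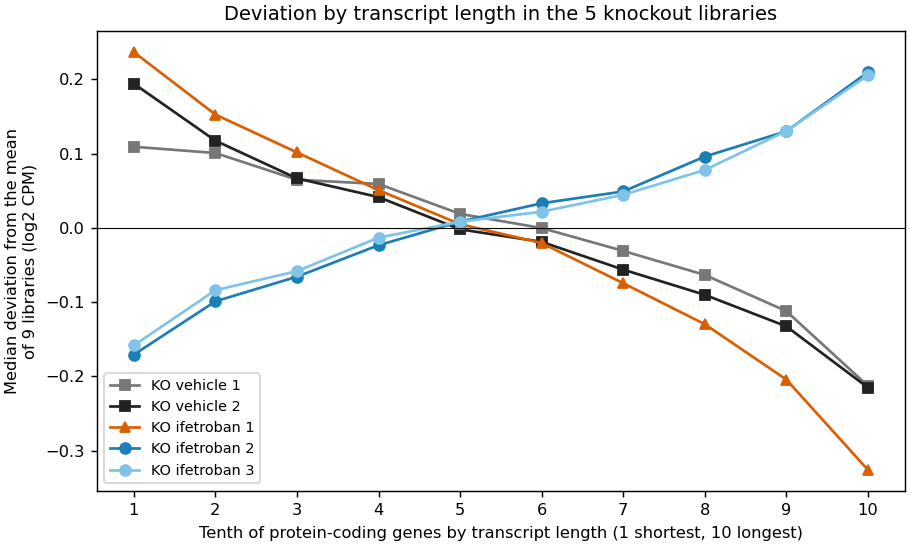
Median deviation from the mean of 9 libraries (log2 CPM, vertical axis) in 10 equal bins of the protein-coding genes by transcript length (horizontal axis, 1 shortest to 10 longest), 1 line per knockout library. Both KO vehicle lines and KO ifetroban replicate 1 slope down with length, and KO ifetroban replicates 2 and 3 slope up.

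No gene passed the threshold. With edgeR's quasi-likelihood test and Benjamini-Hochberg adjustment over 15549 genes, 0 genes were higher (0% of those tested) and 0 were lower (0%) in KO ifetroban at an adjusted p under 0.05; the smallest adjusted p was 0.862. An unadjusted p under 0.05 was reached by 615 genes, 352 of them higher (2.26%) and 263 lower (1.69%), where equal spacing of p would put 777. That count was not stable: it was 1011 of 16083 genes (6.29%) without the library labelled wild-type vehicle replicate 1, 984 without wild-type vehicle replicate 2, 390 and 204 without KO vehicle replicates 1 and 2, 250 without KO ifetroban replicate 2, and 3451 (22.2%) with KO ifetroban replicate 1 counted as vehicle. DESeq2 and limma-voom also called 0 genes, with 596 and 647 at an unadjusted p under 0.05. Without KO ifetroban replicate 1 the edgeR count was again 0, but 2274 genes had an unadjusted p under 0.05; the 1438 higher ones had a median transcript length of 6135 bases and the 836 lower ones 1704.5 bases. The precision was moderate: the median standard error of a log2 change was 0.20, and the 95% interval of a gene's log2 change had a median half-width of 0.46. That interval is not adjusted for the number of genes tested, and none of the 105 genes of at least 1 CPM with a fitted change beyond 2-fold passed the threshold.

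**Figure D2:**
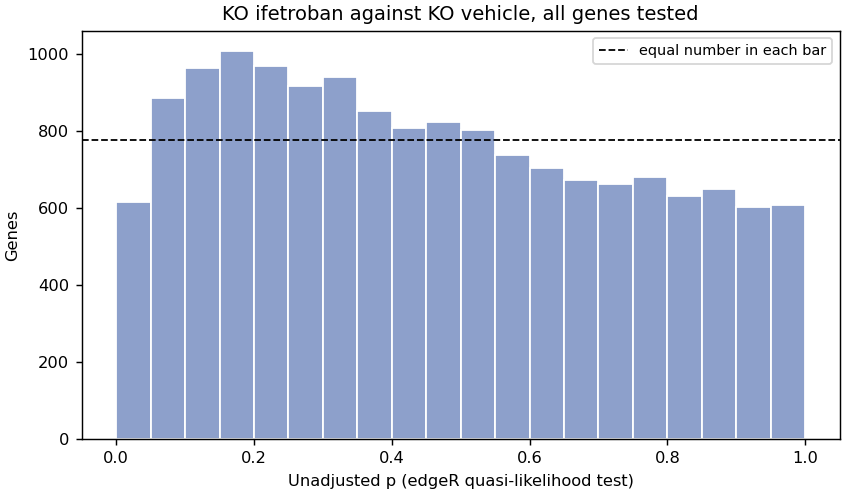
Number of genes (vertical axis) by unadjusted p of edgeR's quasi-likelihood test (horizontal axis, 20 equal bars) for KO ifetroban against KO vehicle. The dashed line marks an equal number per bar; the first bar, p under 0.05, holds 615 genes and lies below the line.

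Because no gene passed, genes are described by their levels. Ranges without overlap, meaning that all 3 KO ifetroban libraries lay on 1 side of both KO vehicle libraries, were found for 1610 genes on the higher side (10.4%) and 1517 on the lower side (9.76%). Those shares are the background for the counts given for each gene group below. Every adjusted p of a gene named by the rule lay between 0.862 and 0.891.

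The 8 genes with the smallest p on the higher side included Ucp3, Lipe, Pfkfb1 and Flnc. Ucp3, a mitochondrial carrier of muscle that is switched on by fatty acids (chromosome 7, 100472990 to 100486432, plus strand, mm10), stood at 18.9 and 13.9 CPM in KO vehicle and at 27.7, 32.07 and 31.97 CPM in KO ifetroban. Its 3 drug libraries lay close together and above both vehicle libraries, with a log2 change of 0.90 ± 0.19 (SE) and a 95% interval of 0.48 to 1.32. Lipe, hormone-sensitive lipase, measured 30.2 and 28.3 CPM against 41.1, 48.4 and 44.9 CPM (0.61 ± 0.15). Pfkfb1, which makes the metabolite that sets the pace of glycolysis, measured 4.48 and 3.21 CPM against 6.88, 6.90 and 6.58 CPM (0.82 ± 0.22). In each of these metabolic genes replicate 1 sat with replicates 2 and 3.

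Flnc encodes filamin C, an actin crosslinker that binds the sarcoglycans (chromosome 6, 29433256 to 29461883, plus strand, mm10). It stood at 353 and 339 CPM in KO vehicle and at 474, 626 and 566 CPM in KO ifetroban, a log2 change of 0.68 ± 0.16. The lowest drug library was replicate 1, which still exceeded both vehicle libraries. Alpk2, an atypical kinase of heart muscle, had log2 change 0.80 ± 0.20, and Armcx4 0.84 ± 0.18. Sbno2, a transcriptional co-regulator induced by cytokines, measured 0.75 ± 0.20 on the same scale, and the zinc finger gene Zfp697 0.65 ± 0.18.

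On the lower side 7 genes are described, among them several secreted products of fibroblasts. Dhrs3, a short-chain dehydrogenase of retinoid metabolism, measured 77.0 and 74.1 CPM against 57.5, 52.0 and 55.3 CPM (-0.46 ± 0.11). The vehicle libraries lay together above the 3 drug libraries. Lum, the small leucine-rich proteoglycan lumican that binds collagen fibrils (chromosome 10, 97565501 to 97572703, plus strand, mm10), measured 84.2 and 99.0 CPM against 55.4, 55.7 and 61.8 CPM (-0.67 ± 0.15).

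The other members of this set were Serpinf1, the secreted factor PEDF, with a log2 change of -0.60 ± 0.15, and Olfml3, a secreted matrix protein, with -0.59 ± 0.15. Fxyd6, a regulator of the sodium pump, measured 51.2 and 49.7 CPM against 32.2, 26.1 and 37.5 CPM (-0.66 ± 0.15). Lgi3 measured -0.99 ± 0.22 and Mdga1 -0.57 ± 0.14. These 15 genes kept their sign in each of the 21 alternative fits run for them, including the fits without replicate 1, and the smallest adjusted p that any of them reached in those fits was 0.0864.

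**Figure D3:**
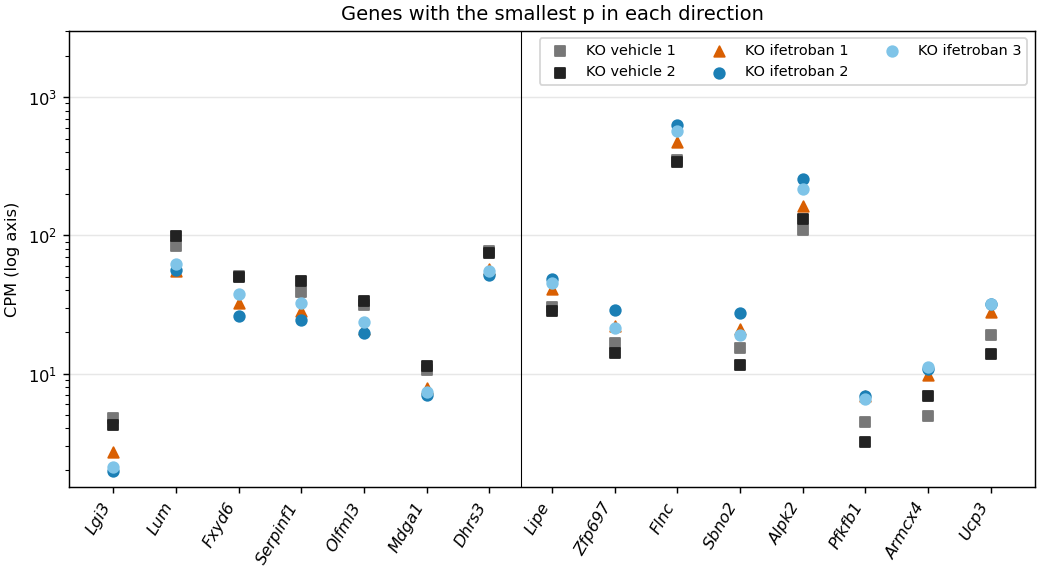
CPM on a log axis (vertical) of 7 genes with the smallest p on the lower side (left of the line) and 8 on the higher side (right), 1 point per knockout library. Grey and black squares are KO vehicle, the triangle KO ifetroban replicate 1 and circles replicates 2 and 3; the vehicle and drug points do not overlap for any of the 15 genes.

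Genes of the drug's own pathway leaned low. The target, Tbxa2r (chromosome 10, 81328732 to 81335171, plus strand, mm10), stood at 5.24 and 5.06 CPM in KO vehicle (5.15 ± 0.127, SD, n = 2) and at 3.23, 1.81 and 3.79 CPM in KO ifetroban (2.95 ± 1.02, SD, n = 3). All 3 drug libraries lay below both vehicle libraries, with replicate 2 lowest, and the log2 change was -0.82 ± 0.33 with a 95% interval of -1.56 to -0.07. Counts behind these values were low, 57 to 138 per library. Without KO ifetroban replicate 1 the log2 change was -0.89. Leaving aside the library labelled wild-type vehicle replicate 1, Tbxa2r stood at 3.12 CPM in wild-type vehicle replicate 2. It stood at 3.43 and 1.87 CPM in the wild-type ifetroban libraries, a range that overlaps the drug-treated knockout libraries. A return of Tbxa2r to the wild-type level was not tested. Tbxas1, the thromboxane synthase that makes the receptor's ligand, measured 3.57 and 3.13 CPM against 4.21, 3.18 and 3.79 CPM, and the groups overlapped.

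Of 24 tested members of the prostanoid list, 0 passed, 6 lay below both vehicle libraries without overlap (25.0%) and 1 above (4.17%), and the median log2 change was -0.19 against 0.01 over all genes tested. Among enzymes that inactivate prostaglandins, Ptgr1 measured 3.38 and 3.65 CPM against 2.62, 2.13 and 2.14 CPM, a log2 change of -0.62 ± 0.24. The synthases Ptgds (-0.32 ± 0.20), Ptgis (-0.30 ± 0.25) and Ptges (-0.26 ± 0.39) and the prostaglandin E receptor Ptger4 (-0.15 ± 0.35) were the other members without overlap on the lower side, each by less than 2 standard errors. Ptgs1, the constitutive cyclooxygenase, measured 0.02 ± 0.20. Inducible cyclooxygenase Ptgs2 varied within both groups, at 3.72 and 2.37 CPM in vehicle and 4.59, 1.97 and 1.53 CPM in drug libraries. Prostaglandin transporter Slco2a1 was the member without overlap on the higher side (0.20 ± 0.24). Apart from Ptgr1, the genes of this paragraph were picked for mention after their values were seen.

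In the calcineurin, NFAT and MEF2 list, a calcium-driven growth route, 3 of 19 lay higher without overlap (15.8%) and 1 lower. The list's median was -0.04 in replicate 1 and 0.10 in replicates 2 and 3. Mef2d measured 140 and 124 CPM against 149, 191 and 182 CPM (0.40 ± 0.14), and Nfatc3 26.5 and 24.9 CPM against 28.2, 38.2 and 33.7 CPM (0.38 ± 0.15). Of 16 receptor and signalling genes for angiotensin, endothelin and adrenaline, 2 lay higher without overlap, Adcy6 (0.45 ± 0.16) and Grk5 (0.57 ± 0.21), and 2 lower. The median of these 16 was -0.10 in replicate 1 and 0.12 in replicates 2 and 3.

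Several matrix genes lay on the lower side. Of 22 tested genes for elastic fibres and proteoglycans, 0 passed, 6 lay below both vehicle libraries without overlap (27.3%) and 0 above, and the median log2 change was -0.32. Those 6 were Lum, Aspn, Ogn, Dcn, Bgn and Mfap5, of which all but Mfap5 are small leucine-rich proteoglycans that coat collagen; Ogn and Bgn were picked for mention after their values were seen. Aspn measured 34.7 and 39.6 CPM against 21.02, 19.5 and 28.4 CPM (-0.69 ± 0.18). Dcn, decorin, measured 489 and 520 CPM against 344, 359 and 412 CPM (-0.44 ± 0.12). Replicate 1 was lowest for Dcn and replicate 2 for Aspn. Ogn measured 95.8 and 107 CPM against 60.3, 68.4 and 80.6 CPM (-0.54 ± 0.15), and Bgn 367 and 482 CPM against 269, 275 and 349 CPM (-0.51 ± 0.16). The list's median was -0.46 in replicate 1 and -0.19 in replicates 2 and 3, and without replicate 1 the fitted median was -0.18, and with replicate 1 counted as vehicle, as its treatment field reads, it was -0.04; replicate 1, the library with contradictory labels, was therefore the lower of the drug libraries for this list.

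Periostin, Postn, is secreted by activated cardiac fibroblasts. It stood at 148 and 253 CPM in KO vehicle (200 ± 74.9, SD, n = 2) and at 74.2, 95.2 and 130 CPM in KO ifetroban (100 ± 28.4, SD, n = 3), a log2 change of -1.004 ± 0.28. The vehicle libraries differed from each other by more than the gap between the lower of them and drug replicate 3. Thrombospondin gene Thbs4, which the stressed heart makes, measured 18.5 and 24.8 CPM against 16.6, 14.0 and 12.8 CPM (-0.59 ± 0.17). Other matricellular genes lay on the higher side: of 37 tested, 6 lay higher without overlap (16.2%) and 4 lower (10.8%), and the list's median was 0.02. It was -0.10 in replicate 1 and 0.08 in replicates 2 and 3. Spp1, osteopontin, measured 5.50 and 2.05 CPM against 58.0, 21.1 and 6.38 CPM, with its highest value in replicate 1 and replicate 3 close to the vehicle level. Tnc, tenascin C, a matrix protein of injured tissue, measured 15.4 and 6.38 CPM against 41.7, 48.4 and 16.5 CPM, with replicate 3 again next to the vehicle libraries. Spp1 and Tnc were picked after their values were seen.

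Among collagen genes themselves, 16 had a log2 change below 0 and 7 above 0. Of 23 tested, 1 lay higher without overlap (4.35%) and 3 lower (13.04%), with a median log2 change of -0.17, and Col1a1, the main chain of fibrillar collagen and chosen after its values were seen, measured 197 and 233 CPM against 175, 235 and 227 CPM (-0.02 ± 0.18). Basement membrane Col4a2 measured 325 and 260 CPM against 355, 384 and 351 CPM (0.31 ± 0.17). In replicate 1, 17 of the 23 lay below both vehicle libraries, and the list's median was -0.37 there and 0.04 in replicates 2 and 3. Transforming growth factor ligand Tgfb3 measured 28.7 and 28.6 CPM against 20.0, 19.6 and 25.0 CPM (-0.41 ± 0.14), in a list of 22 with 2 lower and 1 higher without overlap. The median of those 22 was -0.05 in replicate 1 and 0.17 in replicates 2 and 3. Secreted Wnt antagonists and ligands had 4 of 11 lower without overlap (36.4%) and 0 higher; Dkk3 measured 10.1 and 16.3 CPM against 4.63, 3.94 and 8.76 CPM (-1.20 ± 0.33), and Sfrp1 43.7 and 51.6 CPM against 14.8, 27.3 and 40.6 CPM (-0.79 ± 0.35). Counting replicate 1 as vehicle turned that list's median from -0.19 to 0.12.

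Fibroblast markers lay near these matrix genes. Of 20, 6 lay lower without overlap (30.0%) and 1 higher (5%), with a median log2 change of -0.22, and Lum, Dcn and Mfap5 belong to both lists. With replicate 1 counted as vehicle the fibroblast median was -0.086. Summed, the 20 markers ranged from 2947.5 to 3177 CPM in vehicle and from 2348.4 to 3188.4 CPM in drug libraries. The lowest sum was in replicate 1 and the highest in replicate 3. Gsn was the largest member, at 1083 and 1130 CPM in vehicle and 836, 1000 and 1304 CPM in drug libraries. None of the 20 markers was at 0 in every library. Their part in the matrix values was not tested. In bulk ventricle, fewer cells of a type and less RNA per cell cannot be told apart. The smooth muscle gene Acta2, also a myofibroblast marker, measured 201 and 127 CPM against 125, 111 and 74.0 CPM (-0.67 ± 0.26), in a list of 15 with 3 lower and 0 higher without overlap.

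**Figure D4:**
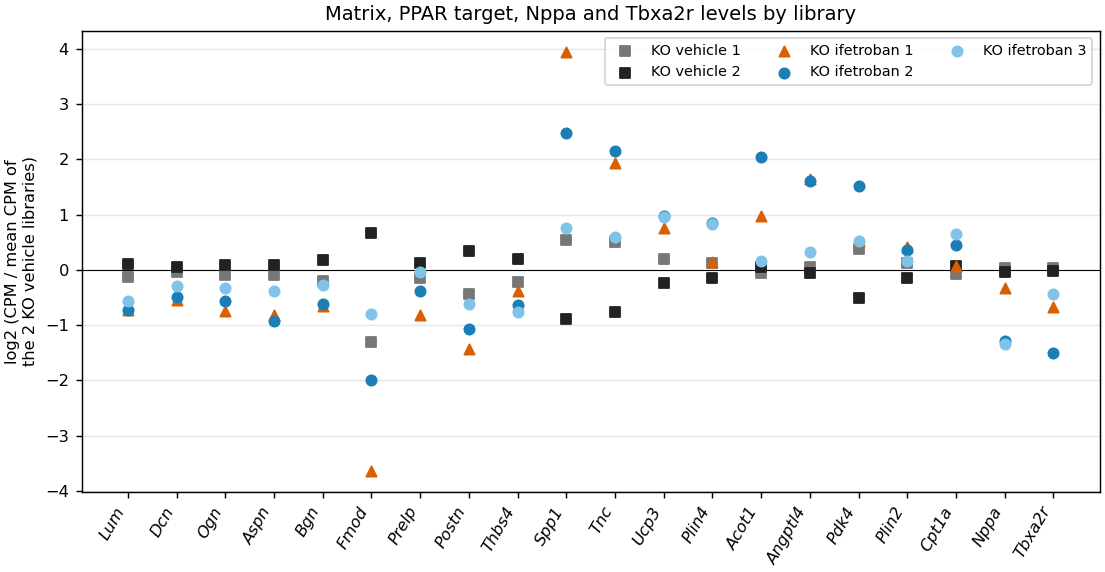
Level in each knockout library relative to the mean of the KO vehicle libraries (vertical axis, log2 ratio of CPM) for matrix genes (Lum to Tnc), PPAR target and uncoupling genes (Ucp3 to Cpt1a), Nppa and Tbxa2r, 1 point per library. Points of the 3 drug libraries lie below both vehicle squares for Lum, Dcn, Ogn, Aspn, Bgn, Postn, Thbs4, Nppa and Tbxa2r, and above them for Spp1, Tnc and the PPAR genes shown, whereas they overlap the vehicle squares for Fmod and Prelp.

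Among natriuretic peptide and fetal genes, Nppa stood apart. Nppa encodes atrial natriuretic peptide, which a strained ventricle makes anew (chromosome 4, 148000722 to 148002079, plus strand, mm10). It stood at 905 and 863 CPM in KO vehicle (884 ± 29.9, SD, n = 2) and at 705, 363 and 349 CPM in KO ifetroban (472 ± 202, SD, n = 3), and the groups did not overlap. Replicate 1 lay nearer to vehicle than to the other drug libraries. The log2 change was -0.91 ± 0.28 with all 3 drug libraries, -1.31 without replicate 1, and -0.33 where the comparison was limited to the libraries with a negative length slope, which leaves replicate 1 as the lone drug library. Of the atrial and conduction list, to which Nppa belongs, 3 of 12 tested members lay higher without overlap: Hcn4, Gja5 and Myl4. Nppa and Dkk3 (-1.20 ± 0.33) were the 2 that lay lower. Gja5, named after its values were seen, measured 7.86 and 6.91 CPM against 10.4, 10.7 and 8.72 CPM (0.43 ± 0.19). The atrial light chain Myl7 was at most 0.223 CPM and the atrial growth factor Bmp10 at most 0.281 CPM in any knockout library, and Myl4 ranged from 0.721 to 1.59 CPM. Stard10 (13.9 to 19.2 CPM) and Nr2f2 (14.8 to 17.9 CPM), list members that were not near 0, overlapped between groups. The summed atrial and conduction list, 969 to 1007 CPM in vehicle and 451 to 802 CPM in drug libraries, consisted mostly of Nppa; the part of atrial tissue in the Nppa values was not tested.

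Nppb, the brain natriuretic peptide gene beside Nppa on the chromosome, overlapped between groups at 632 and 482 CPM against 593, 480 and 347 CPM (-0.23 ± 0.28). Ankrd1, a stretch-responsive repressor, measured 2749 and 2550 CPM against 2561, 2069 and 1984 CPM (-0.27 ± 0.17). Myh7, the slow myosin heavy chain of the fetal heart, measured 192 and 667 CPM against 199, 296 and 371 CPM. The vehicle libraries of Myh7 differed more than 3-fold, and the log2 change of -0.57 turned to 0.59 without vehicle replicate 2. Across the cardiac stress list, 5 of 21 lay higher without overlap (23.8%) and 3 lower (14.3%), with a median of 0.01. Next to Flnc on the higher side were the intercalated disc genes Xirp2, at 746 and 960 CPM against 1017, 1183 and 1143 CPM, and Xirp1 (0.54 ± 0.23), both named after their values were seen.

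Sarcomere genes were mixed. Of 27, 0 lay higher and 1 lower without overlap; Lmod3, which nucleates thin filaments, measured 103 and 106 CPM against 76.8, 73.9 and 83.4 CPM (-0.42 ± 0.11). Long sarcomere transcripts split by library: Myh6, the adult myosin heavy chain, measured 12629 and 13069 CPM in vehicle, 12230 CPM in replicate 1 and 18560 and 20919 CPM in replicates 2 and 3. Dmd, dystrophin, split in the same way at 88.3 and 99.9 CPM, 87.4 CPM, and 159 and 159 CPM. In the negative-slope libraries alone Dmd measured -0.10 and Myh6 -0.07. For the whole dystrophin and sarcoglycan list, 1 of 22 lay higher without overlap (4.55%) and 2 lower (9.09%), both shares below those over all genes tested; 16 of 22 were above 0, the fitted median was 0.17, and the median was -0.10 in replicate 1 and 0.11 in replicates 2 and 3. Anxa1, an annexin of membrane repair and of the resolution of inflammation, measured 29.6 and 26.9 CPM against 25.8, 18.5 and 21.2 CPM (-0.37 ± 0.17).

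Costamere and junction genes, whose proteins tie the contractile apparatus to the membrane and heart cells to each other, lay on the higher side. Of 22, 9 lay above both vehicle libraries without overlap (40.9%) and 0 below, with a median log2 change of 0.25. Integrin Itga7, the laminin receptor of muscle, measured 161 and 118 CPM against 219, 208 and 163 CPM (0.50 ± 0.18), and Itga5, the fibronectin receptor, 47.6 and 44.8 CPM against 70.8, 76.5 and 51.1 CPM (0.52 ± 0.17). For both integrins replicate 3 was nearest to the vehicle level. The list's median was 0.03 in replicate 1 and 0.34 in replicates 2 and 3, and 0.02 with the length slope as a term in the fit. Calcium handling genes behaved alike: 7 of 24 lay higher without overlap (29.2%) and 1 lower, with medians of 0.02 in replicate 1 and 0.29 in replicates 2 and 3. Among the 7 was Atp2a1, a gene of fast skeletal muscle that was high in KO ifetroban replicate 3 alone. Cacnb2, a subunit of the L-type calcium channel, measured 49.0 and 47.0 CPM against 49.1, 73.2 and 63.6 CPM, with replicate 1 level with vehicle replicate 1.

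Of 26 sodium, potassium and pacemaker channel genes, 4 lay higher without overlap (15.4%) and 2 lower. The list's median was -0.15 in replicate 1 and 0.27 in replicates 2 and 3. Pacemaker channel Hcn4 measured 2.43 and 2.33 CPM against 2.62, 7.02 and 5.17 CPM, and the silent potassium channel subunit Kcnv2 4.97 and 3.98 CPM against 5.10, 10.3 and 7.71 CPM. Replicate 1 lay just above the vehicle libraries for both. The sarcoplasmic calcium pump of fast skeletal muscle, Atp2a1, measured 0.190 to 0.328 CPM in 4 libraries and 7.30 CPM in KO ifetroban replicate 3. Other genes of fast skeletal muscle were likewise found in that library, among them Myh1 at 8.15 CPM against at most 0.127 CPM elsewhere, Tnnt3 at 4.80 CPM against at most 0.374 CPM and Mylpf at 4.32 CPM against at most 0.456 CPM; their part in other values of replicate 3 was not tested.

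Genes of fatty acid use lay on the higher side more often than the background. In the list of PPAR target and uncoupling genes, which fatty acids induce through the PPAR nuclear receptors, 0 of 17 passed, 9 lay above both vehicle libraries without overlap (52.9%) and 1 below (5.88%), with a median log2 change of 0.32. Its median was 0.15 in replicate 1 and 0.31 in replicates 2 and 3. Beside Ucp3, Plin4, a coat protein of lipid droplets, measured 117 and 96.5 CPM against 118, 193 and 191 CPM (0.65 ± 0.22). Pdk4, the kinase that shuts pyruvate out of the mitochondrion, measured 218 and 118 CPM against 243, 483 and 243 CPM (0.94 ± 0.35). Angptl4, an inhibitor of lipoprotein lipase, measured 4.14 and 3.81 CPM against 12.5, 12.2 and 5.005 CPM (1.31 ± 0.47), and the thioesterase Acot1 6.45 and 6.91 CPM against 13.1, 27.6 and 7.43 CPM (1.27 ± 0.44). Replicate 3 was close to vehicle for Angptl4 and Acot1, and replicate 1 close to vehicle for Plin4. The remaining members on that side were Acot2, Plin2, Ehhadh and Cpt1a, with log2 changes of 0.25 to 0.41, and the member on the other side was Txnip (-0.31 ± 0.21); these, Pdk4, Angptl4 and Acot1 were named after their values were seen.

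For fatty acid uptake and oxidation, 8 of 34 lay higher without overlap (23.5%) and 0 lower, with a median log2 change of 0.09. Slc27a1, a fatty acid transporter, measured 72.1 and 83.2 CPM against 93.1, 123 and 99.9 CPM (0.44 ± 0.16). The fat cell list summed to 71.9 to 73.3 CPM in vehicle and 64.6 to 79.8 CPM in drug libraries, most of it from Cidea, Scd1 and Fasn; Adipoq was at most 0.342 CPM and Plin1 at most 0.381 CPM. Their part in the fatty acid values was not tested. The 26 genes of glucose use showed 2 higher and 1 lower without overlap and a median of -0.06; Slc2a1, the insulin-independent glucose transporter, measured 19.4 and 21.2 CPM against 25.7, 23.9 and 22.7 CPM (0.25 ± 0.12).

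The respiratory chain and ribosomal protein lists, with short median transcripts, went opposite ways in the drug libraries. Of 50 nuclear genes of the respiratory chain, 1 lay higher and 0 lower without overlap, yet in replicate 1 44 of the 50 lay above both vehicle libraries (88.0%, against 35.4% of all genes tested). The list's median was 0.15 in replicate 1 and -0.30 in replicates 2 and 3. Cytosolic ribosomal protein genes did the same, with 38 of 42 above both vehicle libraries in replicate 1 (90.5%), a median of 0.20 there and -0.37 in replicates 2 and 3. Mitochondrial ribosomal protein genes had medians of 0.07 and -0.32. The fitted medians of the respiratory chain, cytosolic and mitochondrial ribosomal lists, -0.14, -0.16 and -0.16, turned to 0.15, 0.22 and 0.10 with the length slope as a term.

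**Figure D5:**
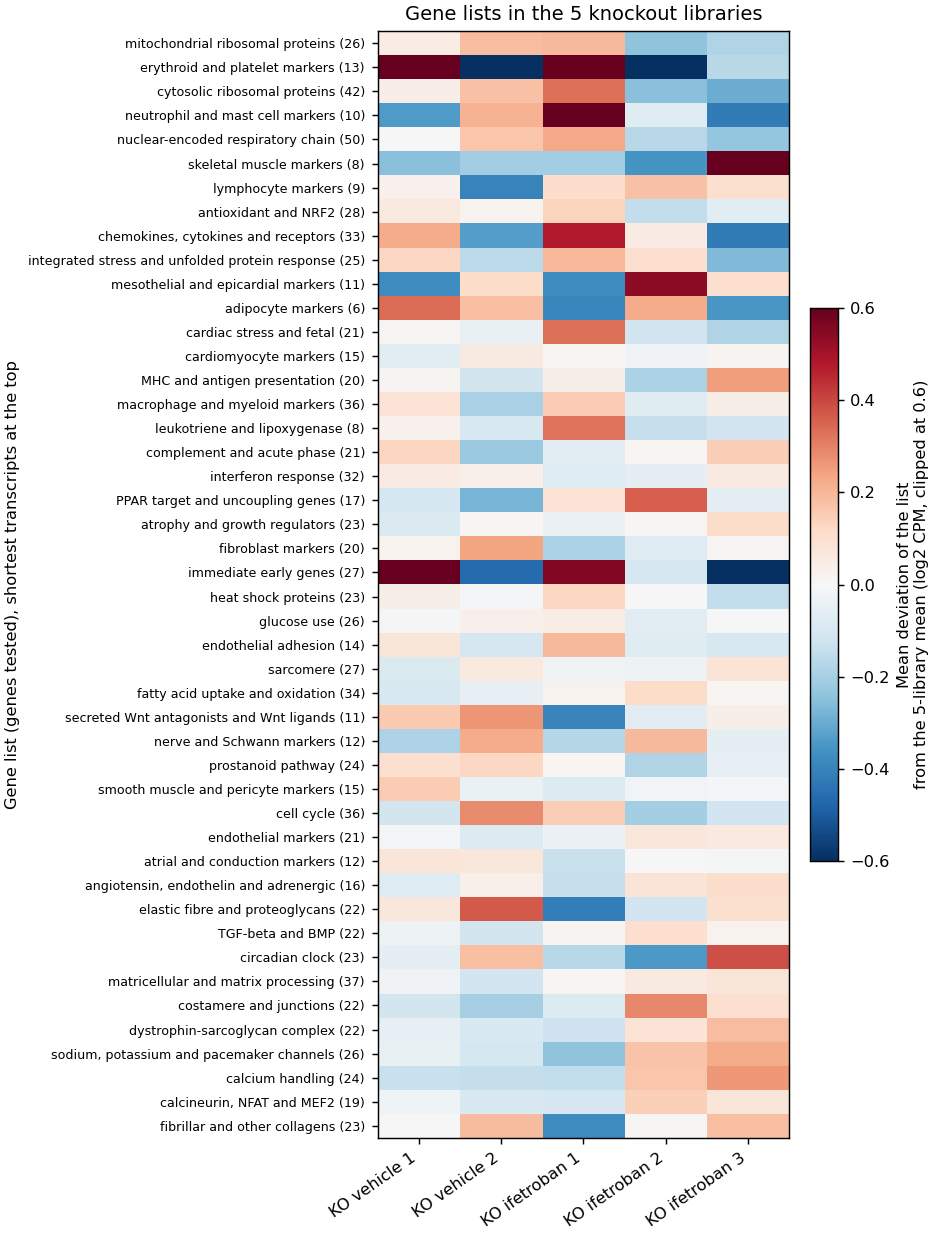
Mean deviation of each gene list from the mean of the 5 knockout libraries (colour, log2 CPM, clipped at 0.6), 1 column per library and 1 row per list shown, ordered from the shortest median transcript at the top to the longest at the bottom; the number of genes tested is in brackets. Ribosomal and respiratory chain lists near the top are high in KO ifetroban replicate 1 and low in replicates 2 and 3, and lists near the bottom such as calcium handling show the opposite.

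Immune genes varied between drug libraries. Macrophage and myeloid markers summed to 2244 to 2290 CPM in vehicle and 2075 to 2365 CPM in drug libraries. Ctsd was by far the largest member, at 1149 and 1269 CPM in vehicle and 1206, 1052 and 1231 CPM in drug libraries. Of 36 markers 3 lay higher without overlap (8.33%) and 4 lower (11.1%). Ccr2, the chemokine receptor of recruited monocytes, measured 8.81 and 5.34 CPM against 24.7, 14.4 and 11.5 CPM (1.25 ± 0.43), with replicate 1 highest. Its log2 change was 0.87 without replicate 1 and 0.010 in the lowest of its 21 alternative fits. Folr2, a marker of resident macrophages, measured 13.8 and 11.4 CPM against 8.10, 8.39 and 9.36 CPM (-0.55 ± 0.17), with all 3 drug libraries close together. The complement subunits C1qa, C1qb and C1qc, macrophage products, made up the rest of the lower side, at -0.26 to -0.29. Ctss (0.39 ± 0.17) and Mpeg1 (0.57 ± 0.27) made up the rest of the higher side. Other markers found in resident macrophages overlapped between groups: Lyve1 (-0.31), Timd4 (-0.59), F13a1 (-0.09), Cd163 (0.53) and Mrc1 (0.06). Apart from Ccr2 and Folr2, the members of this list were named after their values were seen. For chemokines, cytokines and their receptors the list's median was 0.29 in replicate 1 and -0.05 in replicates 2 and 3. Of 33 tested, 2 lay higher without overlap (6.06%) and 3 lower (9.09%), both shares below those over all genes tested. Il6ra, on the higher side, measured 6.34 and 6.38 CPM against 8.29, 9.72 and 11.8 CPM (0.64 ± 0.19). The other gene on that side was the oncostatin M receptor Osmr (0.55 ± 0.19), seen before it was chosen. Ccl21a, a lymphatic chemokine with near-identical copies among which counts could be split, measured 22.9 and 29.8 CPM against 15.8, 15.7 and 18.6 CPM. It lay lower without overlap, as did Cxcl9 (-0.57 ± 0.28) and Ccl11 (-0.53 ± 0.45), both named after their values were seen.

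Neutrophil genes were highest in replicate 1: Csf3r, the granulocyte growth factor receptor, measured 2.13 and 2.97 CPM against 6.27, 3.75 and 3.31 CPM. With replicate 1 counted as vehicle, its log2 change of 0.80 ± 0.34 became -0.088. Of 32 interferon response genes 2 lay higher and 5 lower without overlap, with a median of -0.10, and Oas1a measured 4.14 and 3.65 CPM against 2.95, 2.86 and 2.87 CPM (-0.43 ± 0.20). Complement inhibitor Serping1 measured 152 and 159 CPM against 95.02, 103 and 141 CPM (-0.46 ± 0.16). The 22 lymphocyte markers summed to 14.8 to 16.0 CPM in vehicle and 14.6 to 17.4 CPM in drug libraries.

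Genes that respond within minutes or follow the clock varied from library to library. Of 27 immediate early genes, 1 lay higher without overlap (3.70%) and 0 lower, with a median log2 change of -0.17. Of 23 clock genes, 2 lay higher (8.70%) and 0 lower, with a median of -0.12. Fos, an immediate early gene, measured 72.8 and 10.6 CPM in vehicle and 57.5, 11.7 and 7.35 CPM in drug libraries, and Dbp, a clock output gene, 107 and 183 CPM against 84.3, 27.0 and 133 CPM; both were named after their values were seen. High Fos went with vehicle replicate 1 and drug replicate 1, and Dbp was lowest in drug replicate 2. Haemoglobin and platelet genes summed to 247 to 1249 CPM in vehicle and 272 to 721 CPM in drug libraries. Among antioxidant genes, plasma glutathione peroxidase Gpx3 measured 284 and 280 CPM against 206, 221 and 194 CPM (-0.45 ± 0.15), and thioredoxin reductase Txnrd1 70.9 and 58.3 CPM against 79.3, 85.9 and 78.0 CPM (0.33 ± 0.13). Growth regulators pointed both ways, with Igf1 at 25.1 and 28.2 CPM against 17.5, 19.1 and 22.4 CPM (-0.44 ± 0.17) and Ddit4, an inhibitor of mTORC1 induced by stress, at 15.3 and 18.7 CPM against 22.2, 27.8 and 34.1 CPM (0.72 ± 0.24).

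Over the 47 lists, 25 medians lay above 0 and 22 below. In 34 lists the median in replicate 1 and the median in replicates 2 and 3 differed in sign. A fitted change beyond 2-fold in genes of at least 1 CPM was found for 105 genes, 84 higher and 21 lower, and for 52 of them the groups overlapped.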

How the data were processed

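Left ventricular RNA was sequenced from 9 mouse libraries. The authors deposited expected counts per gene for each library; per the submitters' processing notes the tools were bcl2fastq, STAR and Partek with the mm10 genome, while the read-counting rule and its strand setting were not given in the sources used here. Those deposited expected counts covered 20634 genes, were rounded to whole numbers, and were grouped by title.

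Genes were filtered with filterByExpr (minimum count 10), scaled by TMM and fitted with edgeR 4.0.16 (quasi-likelihood, robust) in R 4.3.3, with a mean for each of the 4 groups of all 9 libraries. The contrast was KO ifetroban minus KO vehicle, with Benjamini-Hochberg adjustment at 0.05 and 95% intervals. CPM values are not divided by transcript length, so levels are not compared between genes. No gene of the mitochondrial chromosome is listed. The steps were checked on simulated data. DESeq2 1.42.0, limma 3.58.1 (voom), other filters, a replicate block, a length slope term, a length and GC offset and fits without each library were alternatives.

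Genes named by rule were Sgcd, Tbxa2r, Tbxas1, Nppa, Nppb, Myh7 and Ankrd1, the 8 smallest p per direction at a mean of at least 1 CPM, and the 2 smallest p in each of 47 gene lists. The comparison, the rule and the lists were chosen with earlier results of these data known. Some results covered by the rule and the lists are not reported here.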

Additional observations from a re-analysis of the deposited data

How the results depend on the processing

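The count of genes past the threshold was 0 in 20 of 22 alternatives and 0 in every fit that left out 1 library. It was 1 with the replicate number as a block (Spp1, log2 change 3.37, adjusted p 0.00936) and 18 with the negative-slope libraries only (8 higher, 10 lower), a fit of 4 libraries in which KO ifetroban replicate 1 is the lone drug library and the spread comes from the KO vehicle pair alone. The correlation of deviations between vehicle and drug libraries of the same number was 0.081 for number 1 and -0.062 for number 2. With 2 vehicle libraries the deviations of 1 mirror those of the other, so these values cannot decide whether replicate numbers pair the libraries. Of 106 genes named by rule, 84 kept their sign in every alternative run. With KO ifetroban replicate 1 counted as vehicle, log2 changes reversed to -0.06 for Tbxas1, -1.77 for Ltb4r1, -0.088 for Csf3r, -0.91 for Cxcr2, -0.38 for Selp, -0.013 for Il4ra, -0.25 for Myc, -0.25 for Slpi and -0.44 for Aldh1a2. With the length slope as a term they reversed to -0.48 for Sgcd, -0.047 for Arhgef12, -0.012 for Dmd, 0.090 for Cycs, 0.029 for Mrps33, 0.029 for Mrpl12, 0.0041 for Rpl22, 0.063 for Rpl19, 0.026 for Hspe1, -0.059 for Myh6 and 0.021 for Pf4. With the negative-slope libraries only they reversed to 0.092 for Nppb, -0.32 for Sgcd, -0.093 for Arhgef12, -0.10 for Dmd, 0.055 for Cycs, 0.028 for Mrpl12, 0.023 for Rpl22, -0.070 for Myh6 and 0.034 for Pf4. Leaving out 1 library gave -1.21 (without KO vehicle replicate 1) to 0.59 (without KO vehicle replicate 2) for Myh7, and -0.41 (without KO ifetroban replicate 1) to 1.74 (without KO ifetroban replicate 2) for Ltb4r1. Of 987 list medians under alternatives, 97 moved by more than the spread between replicates, 26 of them with the negative-slope libraries only, 24 with the slope term and 19 with replicate 1 counted as vehicle. The cause was not tested. The 2 vehicle libraries limit the precision of every value.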
